A study of Mus musculus with 2 samples.

Results

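Endothelial cells line blood and lymph vessels and are sealed to one another by cadherin and claudin junctions. Their growth and quiescence are set by receptors for vascular endothelial growth factor (VEGF), angiopoietins and circulating bone morphogenetic proteins, and their identity by transcription factors of the SoxF, ETS and hypoxia-inducible families. In the lung they form the capillary bed of the alveoli, next to the fibroblasts from which they are separated when lung tissue is digested and sorted. A set of 46 genes known from pan-endothelial, capillary, arterial and lymphatic expression was followed here in libraries of sorted lung fibroblasts. The members were found by gene symbol, and all 46 occurred among the 16040 genes of the deposited table.

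The fibroblasts came from Col1a2-EGFP mice, in which a fluorescent reporter follows a collagen gene active in fibroblasts. Every mouse in both groups carried the reporter, and animals received saline or bleomycin, a DNA-damaging drug used to produce lung fibrosis, into the trachea. Fibroblasts of 3 mice per group were taken at day 14 and gave 1 library for saline and 1 for bleomycin. Cells negative for lineage markers and positive for the reporter were sorted. The sources used here do not name those lineage markers or give the age or sex of the mice. Their RNA was profiled by SAGE, serial analysis of gene expression, in which each transcript gives a short tag near its 3′ end. A count is therefore not scaled by transcript length.

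The saline library held 1080798 counts and the bleomycin library 1099840. On the CPM scale, counts relative to the scaled library size, 1 count is 0.912 for saline and 0.922 for bleomycin, and a count of 0 allows up to 2.74 and 2.77 CPM. The label of the cells was checked first. Col1a2, the gene of the reporter, had 1636 saline and 5613 bleomycin counts, Col1a1, the other chain of the same collagen, had 2714 and 7925, and Pdgfra, a growth factor receptor of lung fibroblasts, had 509 and 323. Cdh5, which defines endothelium, and Pecam1, which marks it and also platelets and some leukocytes, had 11 and 53 saline counts and 1 and 3 bleomycin counts. With 1 library per group no difference below has a replicate check, and each test compares these libraries and not the conditions. In bulk RNA, fewer cells of a type and less RNA per cell cannot be told apart.

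What the assay reads is the stretch that follows the last CATG of a transcript, the cutting site of the enzyme that SAGE kits of this kind use. The tags below are shown for 10 members on which the results turn, with the site in capitals and the 17 bases after it in lower case. They were predicted from GENCODE M21 transcripts of the deposited accession and not read from the libraries.
Pecam1: CATGccgaaggcccaaagaag
Cldn5: CATGctgggttcgggccagac
Ptprb: CATGgttaaaggaaacctata
Tie1: CATGttactaacaccctgttt
Egfl7: CATGgggagtggggtcttgtg
Tspan7: CATGtattaataaatagagca
Epas1: CATGaccattactgcattgtc
Car4: CATGtggatctctgacctcct
Plvap: CATGaagcacccacagctcag
Slco2a1: CATGttgtatttgccttcaac
The predicted tag of Ecscr is not shown here. All 46 members had such a site, which lay in the 3′ untranslated region for 40 of them. None of the 46 predicted tags occurred on the same strand in a transcript of another gene, and 1, that of Nos3, occurred on the opposite strand of another. A predicted tag was therefore present also for the members that had no counts.

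The 46 endothelial members were scarce in both libraries and scarcer in the bleomycin library. They had together 1692 saline counts, 0.157% of that library, and 481 bleomycin counts, 0.0437%, so that their sum was 3.48-fold lower (3.14 to 3.86). Ranges in brackets are exact 95% intervals that cover counting error only. A single gene, Ecscr, supplied 196 of the 481 bleomycin counts. Without it the sums were 1649 and 285, which is 5.72-fold lower (5.04 to 6.51). Of the 46 members, 39 had more counts in the saline library, 3 had more in the bleomycin library (Ecscr, Slco2a1 and Erg) and 4 were at 0 in both. Among the 13877 genes counted in either library, 45.8% had the higher count in saline.

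**Figure D1:**
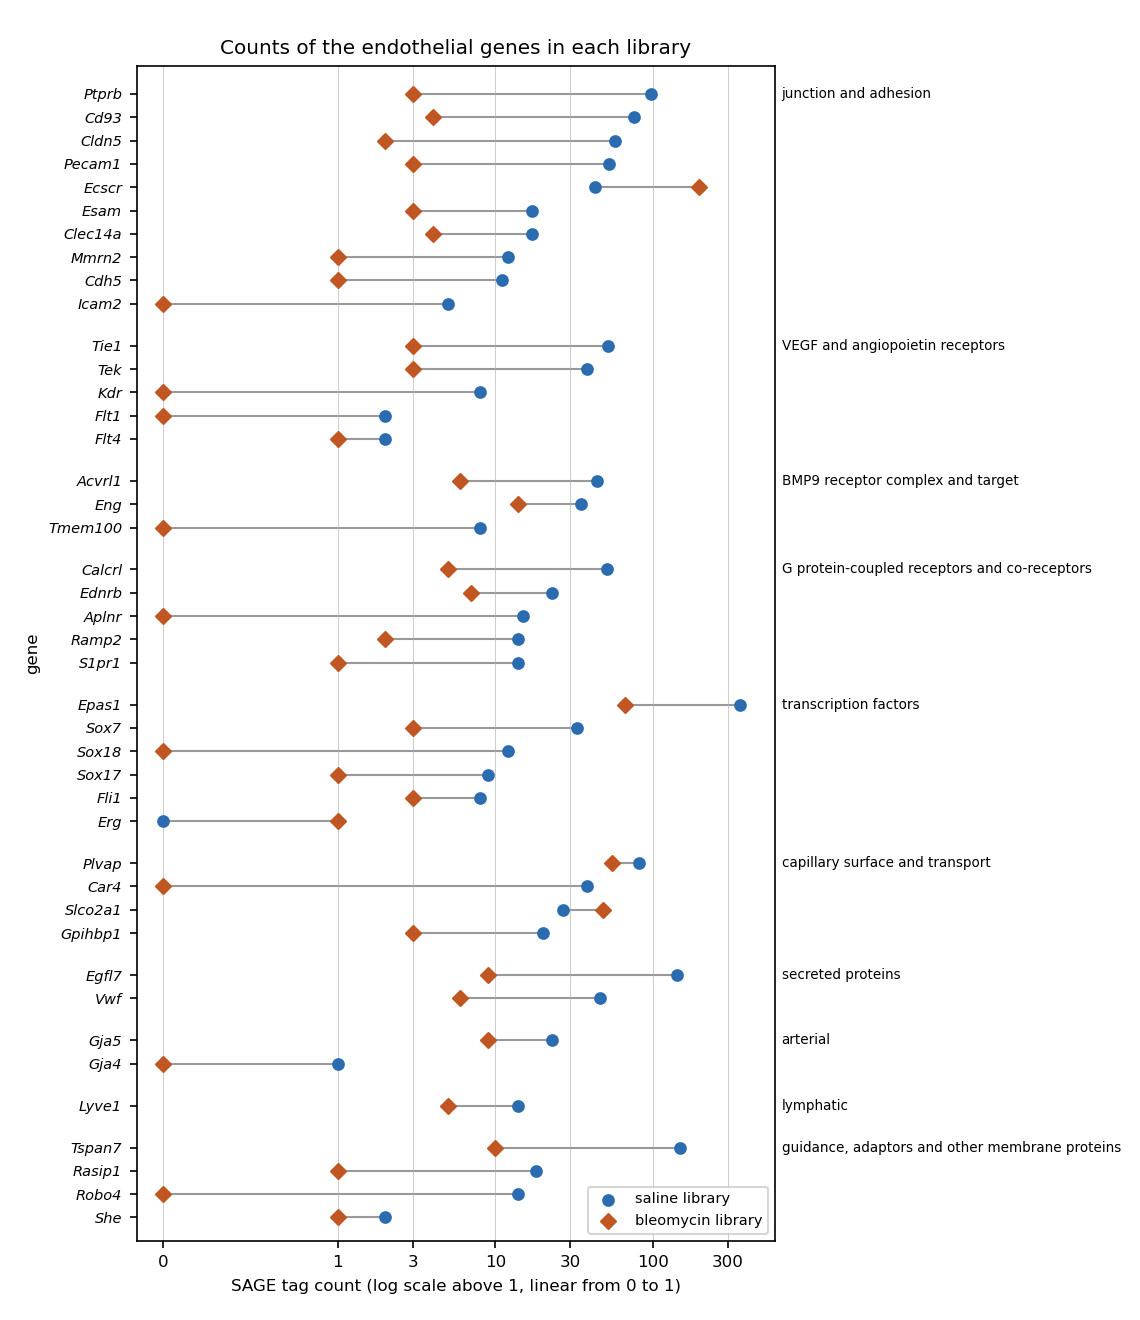
Tag counts of the 42 members counted in either library, grouped by role, with the saline library as circles and the bleomycin library as diamonds. The horizontal axis is logarithmic above 1 and linear from 0 to 1. The diamonds lie left of the circles for 39 members and right of them for Ecscr, Slco2a1 and Erg.

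At least 10 counts over both libraries were needed for a test, which 34 members met. Of these, 26 reached 10 counts in the saline library alone, so their presence among tested genes rests on the library in which they were higher, and the counts that follow describe the members and support nothing further. A gene was called when an exact binomial test across all 9369 tested genes gave a Benjamini-Hochberg adjusted p under 0.05 and the libraries differed at least 2-fold. By this rule 27 of 34 members were called lower in the bleomycin library, against 8.59% of all tested genes, and 1 was called higher, against 8.11%. The median log2 ratio of bleomycin over saline was −2.99 for the tested members and 0.01 for all tested genes. With the 4 tested members at 0 in bleomycin set to 3 counts the members' median was −2.70. With genes at 0 in bleomycin set to 3 counts and no test, 22 members were at least 5-fold lower, a size reached by 2.44% of tested genes. Of the members, 15 were at least 10-fold lower, reached by 0.534%. Genes at 1 or 2 counts were left as they were. Cdh5, Mmrn2, S1pr1 and Rasip1, with 1 bleomycin count each, are therefore among the 15, while Aplnr and Robo4, at 0, do not reach 5-fold.

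**Figure D2:**
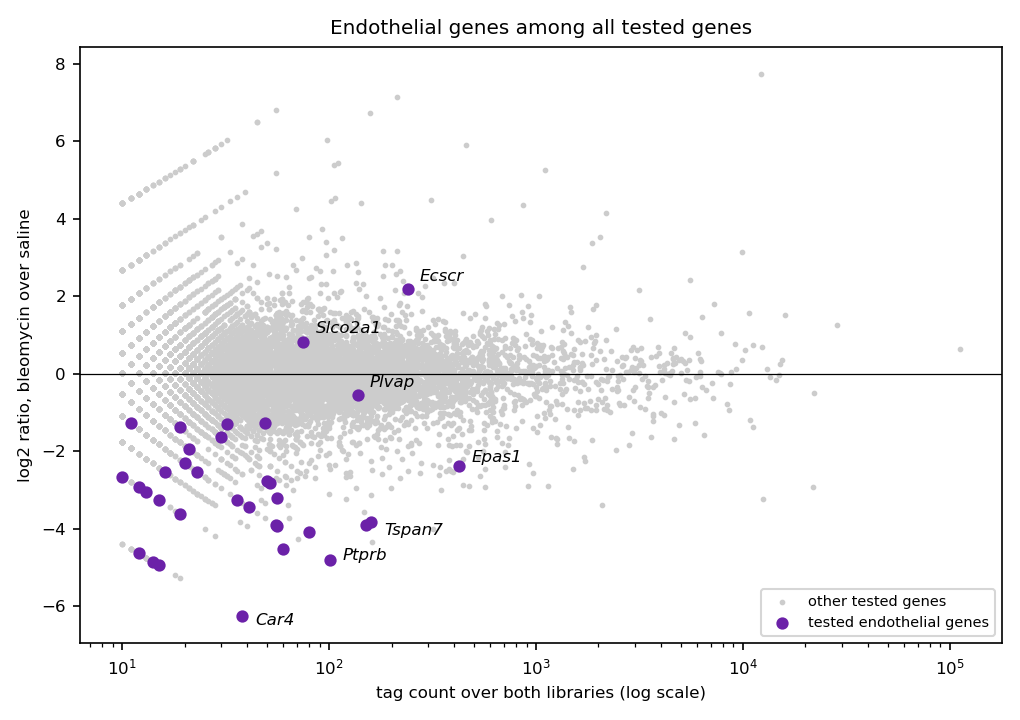
Log2 ratio of bleomycin over saline, with 0.5 added to each scaled count, against the count over both libraries on a log scale for the 9369 tested genes (grey) and the 34 tested endothelial members (purple). Most purple points lie below the cloud of other genes of like abundance, with Ecscr and Slco2a1 above 0, and the position of Car4, at 0 counts in bleomycin, depends on the added 0.5.

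Several calls rest on few counts. Bonferroni adjustment left 14 members called lower (3.58% of all tested genes), and a minimum of 50 counts left 11 of 14 testable members (10.2%). In an edgeR exact test that assumed a biological coefficient of variation of 0.4 between preparations, 5 members were called lower, namely Cldn5, Ptprb, Car4, Egfl7 and Tspan7, out of 8 genes (0.0854%) called lower in all. Member calls lost with Bonferroni adjustment were those of Cdh5, Esam, Clec14a, Mmrn2, Eng, Ramp2, Ednrb, Aplnr, S1pr1, Sox18, Gpihbp1, Robo4 and Rasip1. Calls of genes outside the 46 members are given below without that check.

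Junction and adhesion genes were lower with 1 exception. Of 9 tested members of this group, 8 were called lower and Ecscr higher, against 8.59% and 8.11% of all tested genes. Ptprb, the phosphatase that associates with VE-cadherin and restrains Tie2, had 98 saline counts and 3 bleomycin counts. Its ratio, 32.3-fold lower (10.7 to 159), was the most extreme of the members with counts in both libraries. Cldn5, the claudin that seals the tight junctions of endothelium, went from 58 to 2 counts, 28.7-fold lower (7.59 to 242). Pecam1, the homophilic adhesion molecule CD31, went from 53 to 3, and Cd93, a C-type lectin receptor of endothelial and myeloid cells, from 76 to 4. Cd93 belongs to the same small lectin family as Clec14a, which went from 17 to 4 counts, 4.20-fold lower (1.37 to 17.2). Mmrn2, a matrix protein of vessel walls that binds both lectins, went from 12 to 1, a ratio of 11.9-fold lower (1.76 to 507). Cdh5 (VE-cadherin), the adherens junction cadherin of endothelium, was 10.9-fold lower (1.58 to 468), and Esam, an adhesion molecule of tight junctions, with 17 and 3 counts, was 5.60-fold lower (1.62 to 29.8). The wide intervals of Cdh5 and Mmrn2 follow from their single bleomycin count. Icam2, an adhesion molecule for leukocytes, had 5 and 0 counts and was not tested, and Emcn, a sialomucin of capillary and venous endothelium, had 0 in both.

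Ecscr, a small membrane protein of endothelial cells linked to chemotaxis and cell survival, ran the other way. It had 43 saline and 196 bleomycin counts, 4.61-fold higher (3.30 to 6.57, adjusted p = 1.7e-23 in the exact binomial test). In GENCODE M21 it overlaps a coding gene on the opposite strand, 1700066B19Rik, which had 0 counts in both libraries. The sources used here do not say whether the authors' counting used strand, so tags of overlapping genes cannot be told apart by strand. At 196 counts it was the most abundant of the 46 members in the bleomycin library, where Pecam1, Cdh5, Cldn5 and Tie1 had 3 counts or fewer each.

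The receptor tyrosine kinases of endothelium were lower where they could be tested. Tie1, an orphan kinase that modulates angiopoietin signalling, had 52 and 3 counts, 17.1-fold lower (5.55 to 85.8). Tek, which encodes the angiopoietin receptor Tie2, had 38 and 3 counts, 12.5-fold lower (3.97 to 63.4, adjusted p = 1.5e-07 in the exact binomial test). The VEGF receptor genes were hardly detected. Kdr, the main signalling receptor for VEGF-A, had 8 and 0 counts, Flt1, a high-affinity receptor that also acts as a decoy, had 2 and 0, and Flt4, the receptor of lymphatic endothelium, had 2 and 1. None of these 3 was tested. The 5 receptor genes together went from 102 to 7 counts, 14.4-fold lower (6.75 to 36.7).

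Receptors for other vessel signals were lower as well. Acvrl1, the kinase ALK1 that binds BMP9 and BMP10, had 44 and 6 counts, 7.25-fold lower (3.08 to 20.8). Eng, endoglin, the co-receptor in the same complex and a gene that mesenchymal cells also express, had 35 and 14 counts. Its ratio of 2.47-fold lower (1.30 to 4.97) was smaller, and the call was lost when a ratio of 3 was required. Tmem100, a membrane protein induced by this pathway in endothelium, had 8 and 0 counts and was not tested. Calcrl, the receptor that responds to adrenomedullin when paired with Ramp2, had 51 and 5 counts, 10.1-fold lower (4.05 to 32.4). Ramp2 itself had 14 and 2 counts, 6.92-fold lower (1.59 to 62.8). In GENCODE M21 Ramp2 overlaps Vps25 on the same strand, which had 21 and 8 counts.

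The remaining G protein-coupled receptors were called lower too. Aplnr, the apelin receptor, had 15 saline counts and 0 bleomycin counts, at least 4.94-fold lower against 3 counts (exact limit 3.55). S1pr1, the sphingosine 1-phosphate receptor that supports barrier function, had 14 and 1 counts, 13.8-fold lower (2.11 to 585). Ednrb, an endothelin receptor that marks a class of lung capillary cells, had 23 and 7 counts, 3.25-fold lower (1.35 to 8.97). All 5 members of this receptor group were called lower (8.59% of all tested genes), with 117 counts in sum under saline and 15 under bleomycin.

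Transcription factor genes gave a less uniform picture. Epas1, the hypoxia-inducible factor HIF-2 alpha, which is abundant in lung endothelium and also expressed in other lung cells, was the most abundant member in the saline library at 357 counts. It had 67 counts in the bleomycin library and was 5.27-fold lower (4.05 to 6.95, adjusted p = 1.8e-46 in the exact binomial test). The SoxF factors act together in vessel formation. Of these, Sox7 had 33 and 3 counts, 10.9-fold lower (3.41 to 55.4), and Sox18 had 12 and 0 and was at least 3.96-fold lower (exact limit 2.75). The third, Sox17, which is strongest in arteries, had 9 and 1 counts and was not called (adjusted p = 0.071 in the exact binomial test). Library sizes without scaling by the trimmed mean of M values (TMM) gave it an adjusted p of 0.041 in the same exact test, which passes. Fli1, an ETS factor shared with blood cells, had 8 and 3 counts and was not called (2.64-fold lower, 0.633 to 15.4). Erg, an ETS factor characteristic of endothelium, had 0 and 1 counts.

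Genes of the capillary surface differed among themselves. Car4, a carbonic anhydrase anchored on lung capillary cells, had 38 saline counts and 0 bleomycin counts, at least 12.5-fold lower (exact limit 9.70). Gpihbp1, the protein that carries lipoprotein lipase across capillaries, had 20 and 3 counts, 6.59-fold lower (1.96 to 34.6). By contrast Plvap, which forms the diaphragms of fenestrae and caveolae, had 82 and 55 counts. Its ratio of 1.47-fold lower (1.04 to 2.11) was not called (adjusted p = 0.083 in the exact binomial test). Slco2a1, a prostaglandin transporter, had 27 and 48 counts, a ratio of 1.80 (1.10 to 3.00) that was not called (adjusted p = 0.053 in the exact binomial test). Plvap was the third most abundant member in the bleomycin library after Ecscr and Epas1, and Slco2a1 the fourth. Plvap overlaps Gtpbp3 on the opposite strand, which had 1 and 8 counts. Nos3, the endothelial nitric oxide synthase, had 0 counts in both libraries.

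Secreted, guidance and adaptor genes included Tspan7 and Egfl7, the members with the highest saline counts after Epas1. Egfl7, a secreted protein that endothelial cells lay down around growing vessels, had 142 and 9 counts, 15.6-fold lower (7.99 to 34.8). Vwf, the clotting factor stored in the granules of larger-vessel endothelium and platelets, had 46 and 6 counts, 7.58-fold lower (3.23 to 21.7). Tspan7, a tetraspanin of endothelial and some neural cells, had 150 and 10 counts, 14.8-fold lower (7.85 to 31.6). Rasip1, a Ras-binding adaptor needed for vessel lumens, had 18 and 1 counts, 17.8-fold lower (2.81 to 742). Robo4, a roundabout receptor that stabilises vessels, had 14 and 0 counts, at least 4.61-fold lower (exact limit 3.28). She, an SH2-domain adaptor, had 2 and 1 counts and Cyyr1 had 0 in both, and neither was tested.

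Members tied to arteries and lymph vessels were scarce. Only Gja5 and Lyve1 could be tested, and both were lower but not called. Over all tested genes, 8.59% were called lower and 8.11% higher. Gja5, an arterial connexin, which is also expressed in the heart, had 23 and 9 counts, 2.53-fold lower (1.13 to 6.20). It was not called (adjusted p = 0.067 in the exact binomial test), although library sizes without TMM scaling gave an adjusted p of 0.046 in the same exact test. Gja4, another connexin, had 1 and 0 counts and Bmx, a kinase of arterial endothelium, had 0 in both. Lyve1, the hyaluronan receptor of lymphatic endothelium and some macrophages, had 14 and 5 counts and was not called (2.77-fold lower, 0.942 to 9.82). The interval of Lyve1 holds a ratio of 1.

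The members did not share a single ratio. The ratio of the summed counts, 3.48-fold lower, lay within the exact interval of 19 of 34 tested members, while 12 were lower than that by their whole interval and 3 (Ecscr, Plvap and Slco2a1) were higher. When Ecscr was left out of the sum, 5.72-fold lower, the interval of 24 members held the ratio. Those wholly below it were Cldn5, Ptprb, Cd93, Car4, Egfl7 and Tspan7, and those wholly above were Ecscr, Eng, Plvap and Slco2a1. The 8 members that were listed as broadly expressed outside endothelium (Eng, Epas1, Fli1, S1pr1, Cd93, Lyve1, Vwf and Pecam1) summed to 603 and 103 counts, 5.79-fold lower (4.69 to 7.21). The other 38 summed to 1089 and 378, which is 2.85-fold lower (2.53 to 3.21) with Ecscr among them. Ecscr alone held 43 of those saline and 196 of those bleomycin counts. The smaller fold is therefore not a trait of the 38 members as a whole.

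**Figure D3:**
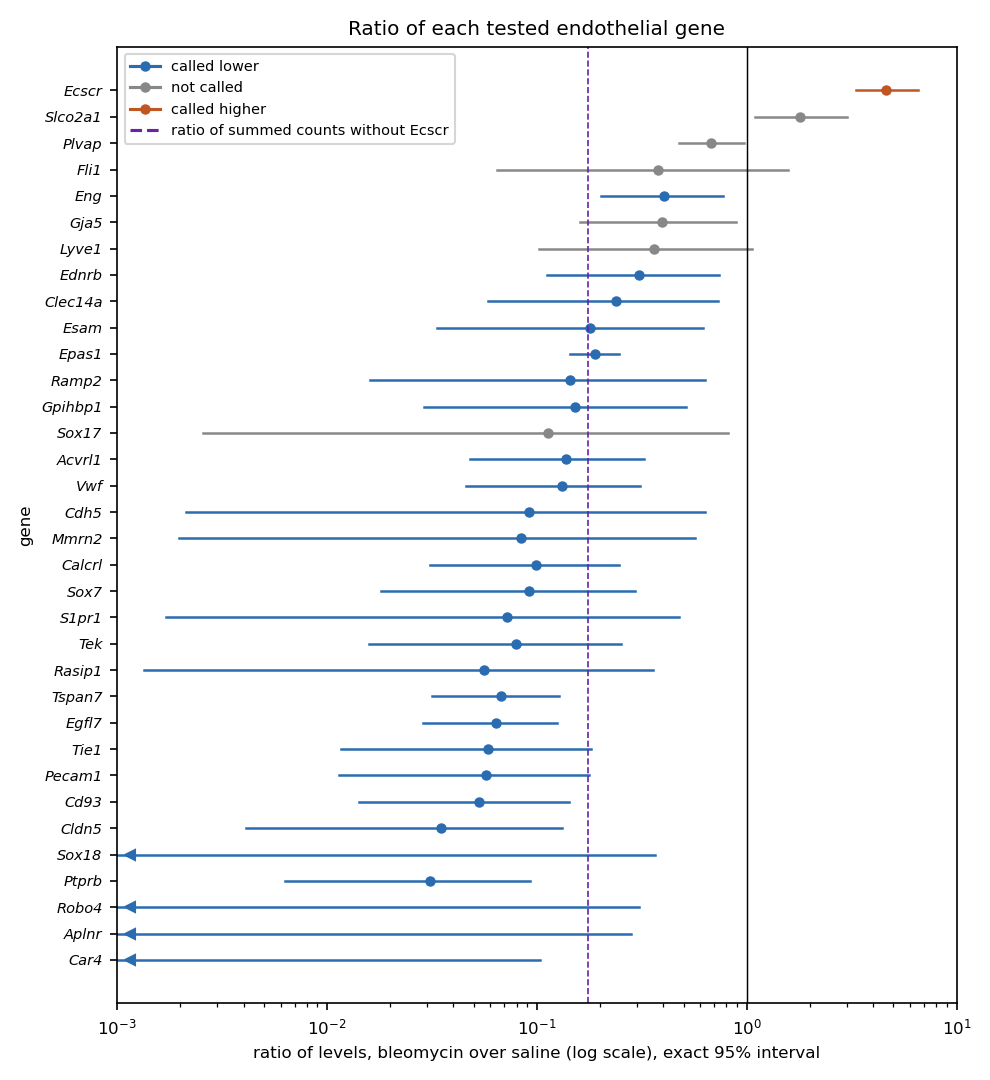
Ratio of bleomycin over saline with its exact 95% interval, on a log scale, for the 34 tested members in order of their log2 ratio. Blue members were called lower, the orange one higher, and grey ones were not called. Arrowheads mark the 4 members at 0 counts in the bleomycin library, and the dashed line is the summed ratio without Ecscr.

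Promoters of some members are shown as a description of sequence. RefSeq (GRCm38.p6) promoters, from 250 bases before to 50 after the start, were on hand for 23 of the 46 members, with 27 entries. The letters GGAAG, the core of sites for ETS factors such as Erg and Fli1, were sought on both strands. The promoters below, 5′ to 3′ on the strand of the gene with GGAAG or its reverse complement in capitals, were chosen after their sequences were seen: Tie1, with 7 matches, the most of any member, Egfl7, with 4 in the first of its 3 entries, and Cldn5, with 0.
Tie1, chr4:118489800-118490099, minus strand: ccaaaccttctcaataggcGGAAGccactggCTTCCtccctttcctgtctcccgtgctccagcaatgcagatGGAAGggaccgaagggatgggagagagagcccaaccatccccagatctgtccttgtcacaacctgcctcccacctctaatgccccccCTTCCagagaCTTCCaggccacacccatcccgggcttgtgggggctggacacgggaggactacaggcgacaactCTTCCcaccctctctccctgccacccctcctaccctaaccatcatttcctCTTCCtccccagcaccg
Egfl7, chr2:26580833-26581132, plus strand: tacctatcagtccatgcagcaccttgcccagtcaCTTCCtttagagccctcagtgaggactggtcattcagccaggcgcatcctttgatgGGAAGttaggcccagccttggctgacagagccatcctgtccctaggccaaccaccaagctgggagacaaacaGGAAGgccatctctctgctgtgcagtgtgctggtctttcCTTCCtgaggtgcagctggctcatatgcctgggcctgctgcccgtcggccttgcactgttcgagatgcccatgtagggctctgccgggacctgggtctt
Cldn5, chr16:18776597-18776896, plus strand: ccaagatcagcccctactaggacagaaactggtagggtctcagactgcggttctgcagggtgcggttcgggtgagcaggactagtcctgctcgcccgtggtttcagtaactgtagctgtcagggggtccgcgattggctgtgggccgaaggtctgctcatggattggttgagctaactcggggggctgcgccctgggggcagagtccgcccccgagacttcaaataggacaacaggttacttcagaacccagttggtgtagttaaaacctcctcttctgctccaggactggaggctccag
All 3 of these genes are among the 27 of 34 tested members called lower (8.59% of all tested genes). Any link between the letters and the calls was not tested. GGAAG occurred in 81.5% of the members' promoters and in 71.4% of all 32851 promoters. ACAGGAA, the core of a joint forkhead and ETS motif, which overlaps GGAAG where a G follows, occurred in 25.9% (7 of 27) against 8.67%. Those 7 entries belong to Bmx, Calcrl, Egfl7 (more than once), Emcn, Rasip1 and Tie1. Of these genes, Bmx and Emcn had 0 counts in both libraries, so the share does not describe the called members alone. The SOX letters AACAAT occurred in 14.8% against 10.7% and the GATA letters AGATAA in 7.41% against 11.2%, both strands counted. These matches are descriptions of letters, were not tested, and rest on 27 promoters.

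The ligands that act on the receptors above were mostly not called. Of 21 ligands and sphingosine 1-phosphate supply genes listed, 18 were in the table and 14 tested, of which 4 were called lower and 1 higher, against 8.59% and 8.11% of all tested genes, with a median log2 ratio of −0.31. Angpt1, the activating ligand of Tie2, had 175 and 86 counts, 2.01-fold lower (1.55 to 2.64), and Angpt2, the context-dependent antagonist that endothelial cells store, had 61 and 21 and was 2.87-fold lower (1.72 to 4.97). Pgf, placental growth factor, a ligand of Flt1, had 16 and 59 counts, 3.73-fold higher (2.12 to 6.94). The other lower ligands, named after their values were seen, were Edn1, an endothelin made mainly by endothelium, at 30 and 3 counts, and Edn3, another endothelin, at 12 and 0. Among those that were not called, and also named after their values were seen, Vegfa had 63 and 48 counts, and Figf, the lymphatic growth factor VEGF-D, had 330 and 277.

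Notch and ephrin genes that pattern vessels were lower in 5 of 8 tested members and higher in 0, against 8.59% and 8.11% of all tested genes, with a median log2 ratio of −1.55. Notch1, a receptor used by many cell types, had 60 and 28 counts, 2.12-fold lower (1.33 to 3.45), and Hey1, a Notch target gene, had 23 and 2, 11.4-fold lower (2.81 to 99.5). Among 35 further genes known from endothelium, many of them also active in other cells, 34 were in the table and 23 tested, with 11 called lower and 2 higher (8.59% and 8.11% over all tested genes) and a median of −0.97. Their sum went the other way, from 9017 to 10355 counts, a ratio of 1.16 (1.13 to 1.19). Sparcl1, a secreted matrix-associated protein named after its values were seen, held 4775 and 7614 of those counts. Thbd, the anticoagulant receptor thrombomodulin, had 1429 and 299 counts, 4.73-fold lower (4.17 to 5.37), and Cxcr7, a scavenging chemokine receptor, had 195 and 54 and was 3.57-fold lower (2.63 to 4.92). Ace, the angiotensin-converting enzyme of lung capillaries, had 211 and 703 counts, 3.37-fold higher (2.88 to 3.95), and Elk3, an ETS factor, had 20 and 61 and was 3.08-fold higher (1.84 to 5.40).

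Markers of other cells that a fibroblast sort could hold were examined beside the endothelial genes. Epithelial markers, with 16 of 16 in the table, went from 231 to 37.8 CPM in sum, 6.10-fold lower (4.37 to 8.71), with Cdh1, Sftpd, Ager and Nkx2-1 at 0 in both libraries and Epcam at 1 and 0 counts. Sftpc, a surfactant protein of alveolar type 2 cells, had 154 and 7 counts, and without it the sums of 99 and 34 counts were 2.88-fold lower (1.93 to 4.39). Of 6 tested epithelial genes 3 were called lower and 0 higher, against 8.59% and 8.11% of all tested genes. Besides Sftpc these were Scgb1a1 at 46 and 12 counts and, named after its values were seen, Cldn18 at 18 and 0. Leukocyte markers, 14 of 18 in the table, went from 102 to 28 counts (93.0 to 25.8 CPM), of which Cd74, a class II antigen chaperone, held 72 and 16. Ptprc, which encodes CD45, had 0 and 1 counts, and Cd3e, S100a9 and Itgax had 0 in both. Of 2 tested leukocyte genes Cd74 was called lower (8.59% of all tested genes) and 1 was not called. Red cell and platelet markers, 6 of 8, went from 41 to 19 counts (37.4 to 17.5 CPM), of which Hba-a1, an alpha globin, held 29 and 7. Of 2 tested genes Hba-a1 was called lower (8.59% of all tested genes) and 1 was not called. Among the others, named after their values were seen, Itga2b had 7 and 4 counts, Gp1bb 3 and 6, and Pf4, a platelet chemokine, 0 and 2. Pericyte markers, 10 of 11, went from 295 to 162 CPM, 1.81-fold lower (1.51 to 2.19). Of 9 tested genes 4 were called lower and 0 higher, against 8.59% and 8.11% of all tested genes. Ndufa4l2 (55 and 21 counts) and Higd1b (44 and 6) were among the lower ones. The other 5 were not called. Of these, named after their values were seen, Cspg4 had 31 and 49 counts, Pdgfrb 30 and 27 and Kcnj8 69 and 50. Smooth muscle markers stood at 592 and 836 CPM in sum with Des, the intermediate filament desmin, at 169 and 571 counts and called higher, while Myh11, smooth muscle myosin (237 and 106), and Cnn1, calponin (17 and 4), were called lower and Actg2, a smooth muscle actin, had 226 and 225, and mesothelial markers had 5 and 9 counts in all. The part of these other cells in the endothelial result was not tested.

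In sum the endothelial members stood at 1543 CPM under saline and at 444 CPM under bleomycin, while the 10 fibroblast markers stood at 15352 and 30212 CPM. The fibroblast sum rests largely on a few abundant matrix genes. Fn1, fibronectin, had 1018 and 8890 counts and Col1a1 2714 and 7925, both called higher. The median log2 ratio of the fibroblast markers was 0.52. Among the fibroblast markers 4 were called higher and 2 lower, against 8.11% and 8.59% of all tested genes, and 4 were not called. The lower ones were Dcn, the small proteoglycan decorin, and Tcf21, a transcription factor of lung mesenchyme. Dcn had 4861 and 1606 counts and Tcf21 had 338 and 93. Whether the composition of the sorted cells had a part in this was not tested.

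**Figure D4:**
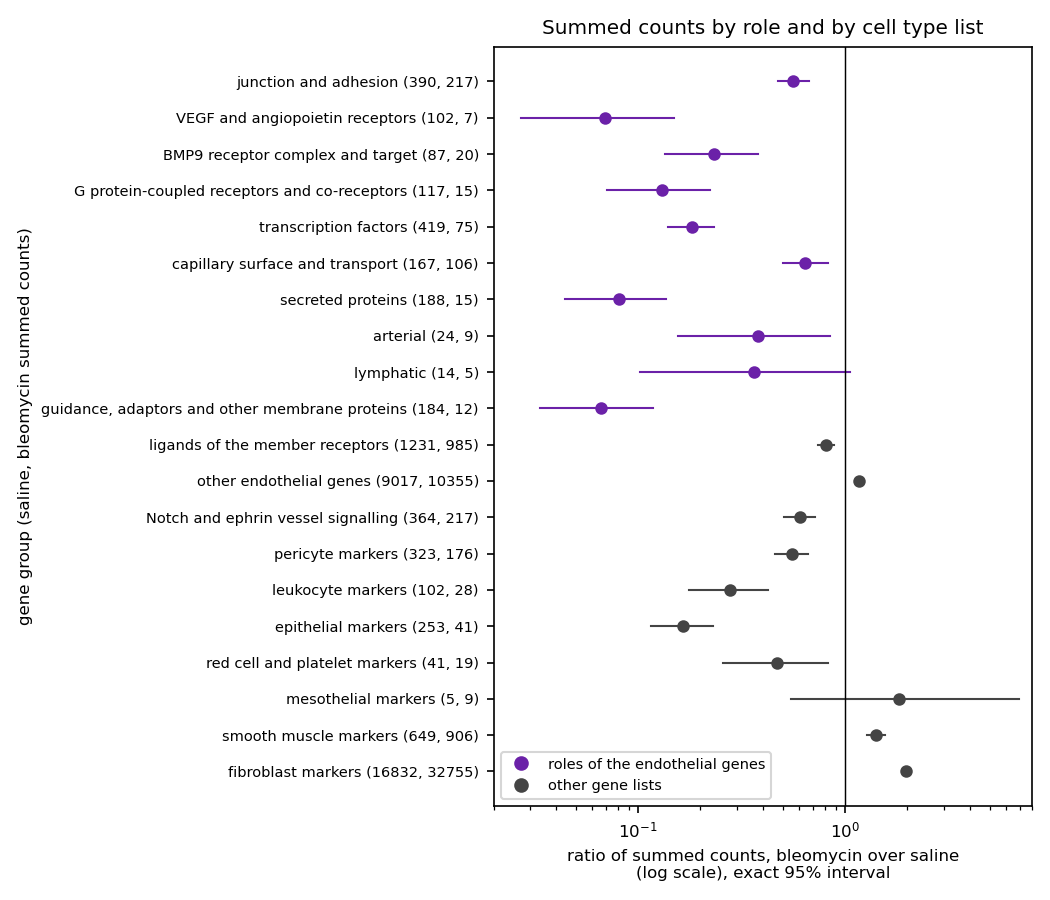
Ratio of summed counts, bleomycin over saline, on a log scale with exact 95% intervals, for the 10 role groups of the endothelial members (purple) and for the other gene lists (dark grey). Numbers in brackets are the summed saline and bleomycin counts. All 10 role groups have their point left of 1, with the junction group pulled to the right by Ecscr and the capillary group by Plvap and Slco2a1.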

How the data were processed

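The deposited table gives whole-number tag counts per gene for both SOLiD SAGE libraries. Per the submitters' processing notes, BWA 0.6.2 and mm9 were used, with no role stated. The sources used here do not give tag assignment, strand use or any scaling before deposit, and tests hold only if the deposited values are raw counts. After 1 blank line was left out, library sizes were scaled by TMM in edgeR 4.0.16 (R 4.3.3), by 1.01 for the saline library and 0.986 for the bleomycin library. The quasi-likelihood test needs residual degrees of freedom that single libraries do not give. Genes with at least 10 counts were therefore given an exact binomial test (two-sided), adjusted by Benjamini-Hochberg, and called at an adjusted p under 0.05 with at least a 2-fold ratio. Log2 ratios have 0.5 added to scaled counts, ratios have exact Clopper-Pearson 95% intervals, and a gene at 0 was bounded with 3 counts in that library. PCR reads without molecular identifiers are not independent molecules, and intervals and floors do not cover more than counting error. The procedure was tested on simulated data. DESeq2 1.42.0 gave an alternative scaling. Tags and overlaps came from GENCODE M21 and promoters from RefSeq, both of GRCm38, and no coordinates of mm9 were mixed with them. Members and lists were chosen with earlier results of these data known. All 46 members are named. From each other list at most 2 called genes per direction, those with the highest counts, are named, with identity and defining markers added and other exceptions stated. Scripts ran in Python 3.11.15 with scipy 1.17.1.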

Additional observations from a re-analysis of the deposited data

How the results depend on the processing

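The direction of the members' median and of their summed ratio held under every alternative run. The count of members called lower, 27, was 11 with a minimum of 50 counts, where only 14 members could be tested, 14 with Bonferroni adjustment and 5 with an assumed coefficient of variation of 0.4, under which 0 members were called higher. It was 29 with total counts (9.95% of all genes tested in that setting), 27 with DESeq2 size factors (8.79%), 29 with no minimum (5.56%), 26 with a ratio of 3 (4.89%) and 18 with an assumed variation of 0.2 (3.55%). The median log2 ratio was −1.84 with 5 added to each count, against −2.99. The summed ratio was 2.61-fold lower without the 3 members of the highest saline count (Epas1, Tspan7 and Egfl7) and 2.85-fold lower without the broadly expressed members. Both of these sums kept Ecscr, with its 43 saline and 196 bleomycin counts, which pulls them towards a smaller fold. In alternatives chosen after seeing the data, the summed ratio was 5.72-fold lower without Ecscr and 8.37-fold lower without Ecscr, Slco2a1 and Plvap. No paired analysis was possible because each group is 1 library. Depth limits most the members with few counts in both libraries, whose intervals are wide.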
